A study of Canis lupus familiaris with 8 samples.

Results

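The miR-200 family, miR-203 and miR-205 are small RNAs that are abundant in epithelial cells, and their level in dog serum was read here from a miRNA microarray. Members of the miR-200 family repress the transcription factors ZEB1 and ZEB2 and so help to keep cells in an epithelial state. They fall into subgroups by their seed, with miR-200a and miR-141 in one and miR-200b, miR-200c and miR-429 in the other. miR-203 promotes the differentiation of keratinocytes and represses p63, and miR-205 is known from stratified epithelia and also acts on ZEB1 and ZEB2. The members were all miRNA names on the array that stood for one of these miRNAs, with the passenger strands (star names) set apart. This gave 9 of 1224 names and 360 of 48960 features, a feature being a single spot of the array. Of the 9 names, 7 were canine listings (cfa) and 2 were murine listings (mmu) of miR-200a and miR-200b. Each name was printed as 40 features from 2 to 4 probes.

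Serum came from 8 client-owned Doberman Pinschers, 4 with dilated cardiomyopathy (DCM, arrays labelled DoCM5 to DoCM8) and 4 healthy controls (Con1 to Con4). The labels gave an age of 7 to 11 years for all dogs, whereas the study's own description of the dogs has the one named DoCM8 clearly younger and the one named DoCM5 slightly older than this range. According to the study's methods the DCM dogs were in the occult stage, and all of them received pimobendan and an ACE inhibitor together with either sotalol or amiodarone, so that disease and treatment cannot be told apart. Each array held the serum RNA of 1 dog, with no technical repeat, and having only 8 arrays bounds the precision of all values below. In serum, RNA from fewer cells of a type cannot be told apart from less RNA per cell.

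All 8 arrays lay on one slide, the DCM arrays in one row and the control arrays in the other, so that slide row and group cannot be told apart. Across the 438 detected names, DoCM5 correlated least with the rest, at a median r of 0.924, against 0.957 or more for the remaining arrays. The study left out a DCM sample it calls DoCM8 for inconsistent expression levels, whereas here the array labelled DoCM8 had the highest median r, 0.968. The array left out under that label may therefore not be the one the study dropped. Comparisons of the epithelial names are therefore given without DoCM8, with all 8 arrays, and without DoCM5. Fold changes of the other named miRNAs are given without DoCM8 only. Markers of blood cells were present on every array. All 5 erythrocyte names and 7 of 8 leukocyte names were well above background on at least 50% of their features on all 8 arrays. Features that the scanner software marked as outliers were included in such counts of the listed markers. In the comparison without DoCM8, 12 of 438 names (2.74%) passed the limits of the study, 6 higher and 6 lower in DCM. Among them were 1 of 5 erythrocyte names (mmu-miR-144, log2 fold change 0.79) and 1 of 8 leukocyte names (mmu-miR-142-3p, 1.21), both higher. None of either list was lower, and the list medians were 0.25 and 0.09. The part of blood cells in the values below was not tested. Detection on all 8 arrays held for 3 of 4 platelet and endothelial names, 2 of 3 liver names and 2 of 6 heart and muscle names. The share of all names under this limit was not counted. Under the study's filter (described below), at least 50% of features were kept for 5 of 5 erythrocyte and 8 of 8 leukocyte names. The counts were 4 of 4 for platelet and endothelium, 2 of 3 for liver and 4 of 6 for heart and muscle. This held for 28.5% of all names and 47.8% of canine names. No epithelial sample was measured, so the tissue of origin of the epithelial miRNAs was not tested.

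The epithelial miRNAs were read near the detection limit of the array, and which of them were seen differed strongly from array to array. With 1 array per dog, differences between dogs and between arrays cannot be told apart. The scanner software marks a feature as well above background (WABG) when its signal clearly exceeds the local background. Features that the software marked as outliers on an array were not counted there. Over the 8 arrays, cfa-miR-203 was WABG in 60.7% of its measurements, cfa-miR-205 in 42.5% and cfa-miR-141 in 41.9%. The murine listing of miR-200a followed with 27.0% and that of miR-200b with 15.9%. The canine listing of miR-200b reached 6.35%, and that of miR-200a had 1 WABG measurement of 303. cfa-miR-200c had 0 of 305 and cfa-miR-429 had 0 of 311. This is an order of detection and not of amount, since probes differ in how well they bind. The median over the 9 names was 15.9%, beside 15.6% over all 289 canine names and 0% over all 1224 names.

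**Figure D1:**
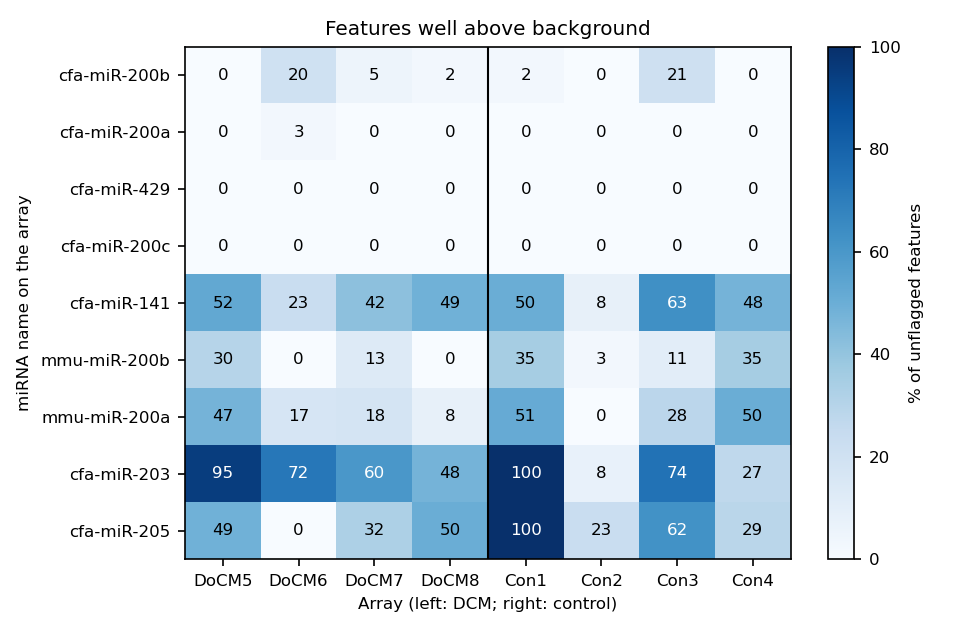
Percent of unflagged features well above background for each epithelial name (vertical axis) on each array (horizontal axis, DCM left of the line, control right), by colour and rounded number. cfa-miR-203 and cfa-miR-205 reached 100% on the array labelled Con1, and cfa-miR-200c and cfa-miR-429 stayed at 0% on all 8 arrays.

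Under the study's filter, which keeps a feature that is WABG in 2 or more of the 4 arrays of either group, 118 of the 360 features were kept. At least 1 feature was kept for 6 of the 9 names, beside 35.8% of all names (54% of canine and 30.2% of murine names). These were 4 of the 7 canine names and both murine names. Only 3 names kept 50% or more of their features, cfa-miR-203 with 36, cfa-miR-205 with 26 and cfa-miR-141 with 20, beside 28.5% of all names and 47.8% of canine names. mmu-miR-200a kept 19 features, mmu-miR-200b 14 and cfa-miR-200b only 3. cfa-miR-200a, cfa-miR-200c and cfa-miR-429 kept none. They were not well above background in either group, and no fold change is given for them.

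Taken over all 9 names, the share of WABG features was 30.8% on DoCM5, 15.1% on DoCM6, 19.0% on DoCM7 and 17.6% on DoCM8. It was 37.1% on Con1, 4.60% on Con2, 28.5% on Con3 and 20.6% on Con4. Both the highest and the lowest array were thus controls, and the DCM arrays lay between them. The mean was 20.6% ± 6.96 in DCM and 22.7% ± 13.8 in controls (SD, n = 4 each), a difference smaller than the spread in either group. Over all names, the same share was 24.5% ± 1.93 in DCM and 25.4% ± 2.24 in controls, with a range of 21.9% to 28.3%. On Con2, the array with 16 WABG epithelial features of 348, all names together reached 23.5%. The share of all names includes many names far from the detection limit. With outlier features included, cfa-miR-194, not a member, had 2 WABG features on Con2 and 24 on DoCM5. Counted in the same way, cfa-miR-215 had 0 on Con2 and 21 on Con1. The arrays with the highest epithelial shares, Con1, DoCM5 and Con3, also had the highest 75th percentile of all signals, 8.84, 9.03 and 10.06. The other arrays lay between 4.88 and 7.30. The part of array brightness in these shares was not tested. With outlier features included, 18 to 137 of the 360 epithelial features per array were WABG, beside 1 to 7 of 1000 negative control features.

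**Figure D2:**
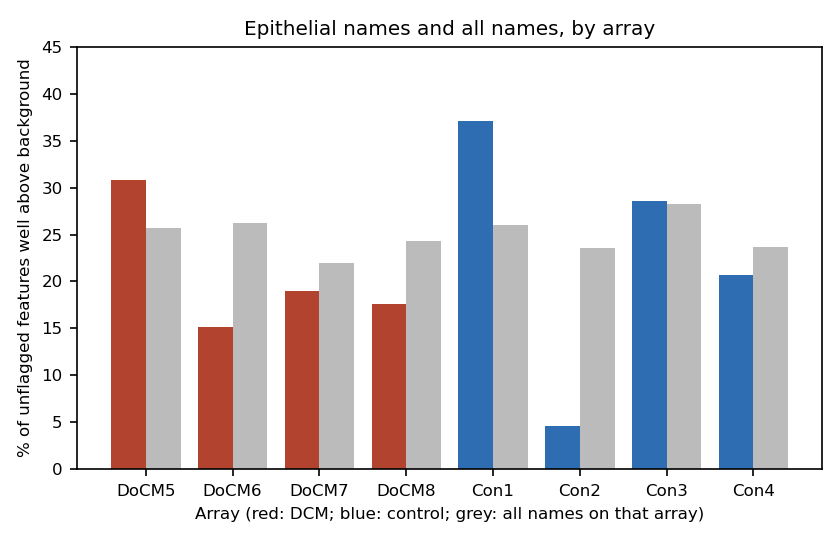
Percent of unflagged features well above background on each array for the 9 epithelial names (red, DCM; blue, control) and for all 1224 names (grey). The epithelial share runs from 4.60% on Con2 to 37.1% on Con1, while the share of all names stays between 21.9% and 28.3%.

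For most names the detection rested on a single probe. cfa-miR-141 was WABG in 124 of 158 measurements of one probe and in 5 of 150 of the other. For mmu-miR-200a the counts were 76 of 149 and 6 of 155, and for mmu-miR-200b 49 of 154 and 0 of 155. All 20 WABG measurements of cfa-miR-200b came from 1 of its 4 probes, out of 80 measurements of that probe. cfa-miR-203 and cfa-miR-205 were the only names of the 9 with kept features on both probes. The counts were 128 of 158 and 62 of 155 for cfa-miR-203, and 105 of 157 and 23 of 144 for cfa-miR-205. In all, 8 of the 21 probes had a kept feature. Why probes of one miRNA differed was not tested.

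**Figure D3:**
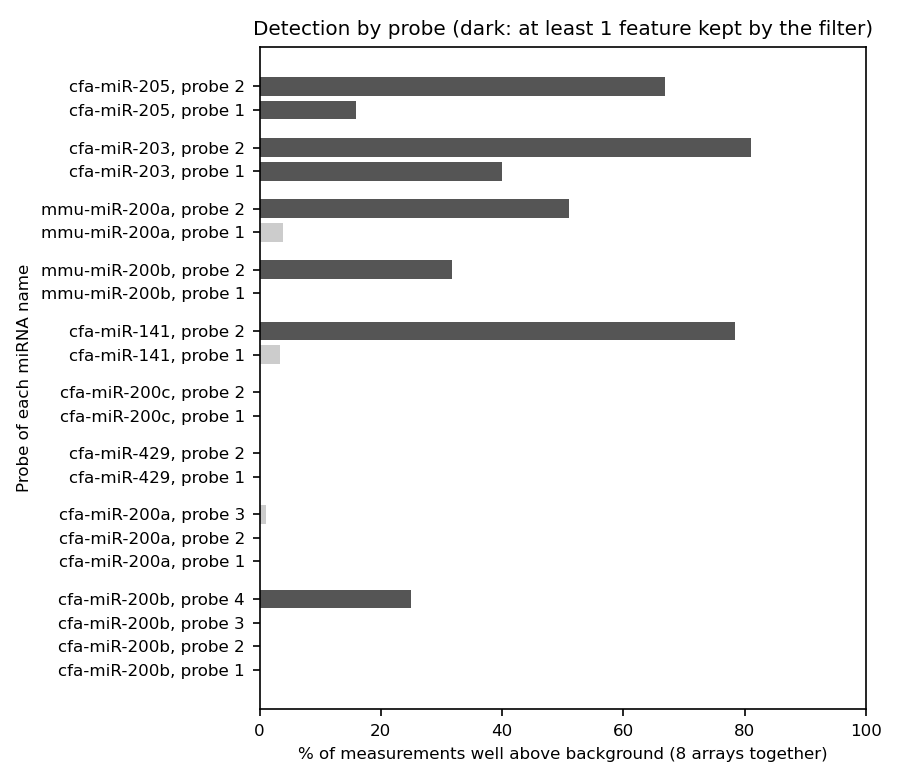
Percent of measurements well above background over the 8 arrays (horizontal axis) for each of the 21 probes of the 9 epithelial names (vertical axis), in dark where at least 1 feature was kept. In every detected name 1 probe leads, and only cfa-miR-203 and cfa-miR-205 have kept features on both probes.

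The gene table for the dog (UU_Cfam_GSD_1.0) held all 7 canine names. In it, MIR200B, MIR200A and MIR429 follow each other directly, and MIR200C lies next to MIR141. In the first cluster, miR-200b kept features in both listings, miR-200a in its murine listing only, and miR-429 in its canine listing kept none. In the second, cfa-miR-141 kept features and its neighbour cfa-miR-200c did not. A failure of a probe to report a miRNA cannot be told apart from its absence in serum, since each probe was read in serum only.

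cfa-miR-203 was the most widely detected epithelial name, and it was uneven among the control arrays. It was WABG in 36 of 38 features on DoCM5, 29 of 40 on DoCM6, 24 of 40 on DoCM7 and 19 of 40 on DoCM8. In controls the counts were 40 of 40 on Con1, 3 of 39 on Con2, 29 of 39 on Con3 and 10 of 37 on Con4. The DCM arrays lay between 19 and 36 WABG features, whereas the controls held both the highest and the 2 lowest arrays. The mean signal of the kept features, in intensity units after background subtraction, was 16.8, 9.56, 8.56 and 7.27 on DoCM5 to DoCM8 and 20.3, 3.77, 10.66 and 4.98 on Con1 to Con4. The groups overlapped.

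After normalization (glog2, a scale close to log2 for bright signals and compressed for dim ones), cfa-miR-203 was 3.34 ± 0.29 in the 3 DCM arrays without DoCM8 and 2.74 ± 0.87 in the 4 controls. The log2 fold change was 0.60 (SE 0.46, 95% interval -0.41 to 1.61), with p = 0.217 in limma, an adjusted p of 0.997 and p = 0.314 in the exact two-sided permutation test. Without Con1, the control with the highest value, it was 1.07, past the limits of an unadjusted p under 0.05 and a fold change over 1.5 (limma p = 0.026, exact permutation p = 0.10, the smallest that 3 against 3 arrays allow). Without Con2, the control with the lowest value, it was 0.31 (limma p = 0.515, exact permutation p = 0.60). With all 8 arrays it was 0.48, with a 95% interval of -0.41 to 1.36, and without DoCM5 in place of DoCM8 it was 0.32 (limma p = 0.391, exact permutation p = 0.457).

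cfa-miR-205 ran from no WABG feature on one array to all features on another. It was WABG in 18 of 37 features on DoCM5, 0 of 38 on DoCM6, 13 of 40 on DoCM7 and 20 of 40 on DoCM8. In controls the counts were 35 of 35 on Con1, 9 of 39 on Con2, 23 of 37 on Con3 and 10 of 35 on Con4. DoCM6 thus had no WABG feature for miR-205, although 29 of its 40 features for miR-203 were WABG. The mean signal of the kept features was 9.06, 3.21, 6.28 and 8.27 on DoCM5 to DoCM8 and 22.8, 6.52, 9.43 and 5.69 on Con1 to Con4. Con1 stood above all other arrays, and the remaining controls lay within or close to the range of the DCM arrays.

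Of the 26 kept features of cfa-miR-205, 18 passed the filter through both groups and 8 through control arrays only. The values that follow are therefore partly chosen by the difference. Without DoCM8, the glog2 value of cfa-miR-205 was 2.52 ± 0.76 in DCM and 3.03 ± 0.76 in controls. The log2 fold change was -0.51 (SE 0.48, 95% interval -1.57 to 0.55), with p = 0.313 in limma, an adjusted p of 0.997 and p = 0.514 in the exact two-sided permutation test. Leaving out Con1 brought it to -0.15, leaving out DoCM6 to -0.08 and leaving out DoCM7 to -0.90. With all 8 arrays the log2 fold change was -0.38, with a 95% interval of -1.32 to 0.56. Without DoCM5 in place of DoCM8 it was -0.32 (limma p = 0.411, exact permutation p = 0.571). With no filter on dim features and without DoCM8 it was -0.75 (limma p = 0.124, exact permutation p = 0.429).

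cfa-miR-141, the member of the miR-200 family seen on most features among the canine listings, was nearly equal in the groups. WABG features numbered 21 of 40, 9 of 39, 15 of 36 and 18 of 37 on DoCM5 to DoCM8. The controls had 20 of 40, 3 of 38, 24 of 38 and 19 of 40 on Con1 to Con4. Con2 and DoCM6 were low, and the other arrays of both groups lay between 15 of 36 and 24 of 38. The mean signal of the kept features was 12.1, 5.95, 8.08 and 9.94 on DoCM5 to DoCM8 and 12.3, 5.42, 12.9 and 8.36 on Con1 to Con4. Without DoCM8, the glog2 value was 2.97 ± 0.59 in DCM and 2.98 ± 0.35 in controls. Limma gave a 95% interval of -0.82 to 0.81 for the log2 fold change, which does not exclude a change of 1.5-fold in either direction (limma p = 0.990, exact permutation p = 1.0). The sign of this difference near 0 turned with the choice of arrays and scaling.

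**Figure D4:**
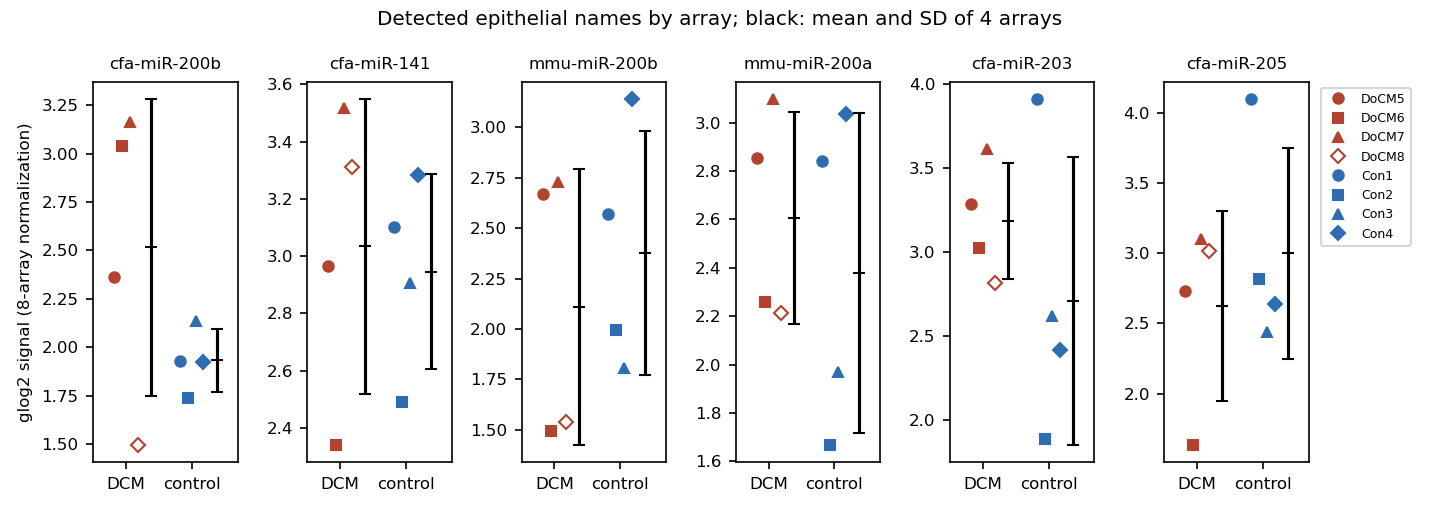
Normalized signal (glog2, vertical axis, own scale in each panel) of the 6 detected epithelial names on each array, in red for DCM and blue for control, with the mean and SD of 4 arrays in black and DoCM8 as an open symbol. The groups overlap in every panel. For cfa-miR-200b, DoCM8 is the only DCM array below the controls.

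The murine listings of miR-200a and miR-200b gave a similar picture of overlap. mmu-miR-200a was WABG in 18, 6, 7 and 3 features on DoCM5 to DoCM8 and in 18, 0, 11 and 19 on Con1 to Con4, of 35 to 40 unflagged features each. mmu-miR-200b was WABG in 12, 0, 5 and 0 features on the DCM arrays and in 14, 1, 4 and 13 on the control arrays, of 37 to 40. For both names the arrays DoCM5, Con1 and Con4 had the most WABG features, and both groups held arrays with few. Of the 19 kept features of mmu-miR-200a, 10 passed the filter through both groups, 2 through DCM arrays only and 7 through control arrays only. For mmu-miR-200b, with 14 kept features, these counts were 1, 2 and 11. The fold changes that follow are therefore partly chosen by the difference. Without DoCM8, the log2 fold change was 0.37 (SE 0.42, 95% interval -0.55 to 1.29) for mmu-miR-200a. It was -0.07 (SE 0.44, 95% interval -1.04 to 0.89) for mmu-miR-200b. With all 8 arrays these values were 0.23 and -0.27, and without DoCM5 in place of DoCM8 they were 0.09 and -0.33. Without DoCM8, limma gave p = 0.396 and p = 0.873, and the exact two-sided permutation test p = 0.429 and p = 0.914.

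The canine listing of miR-200b was higher in DCM by the limits of the study without DoCM8, the only member to pass them, and it rested on the fewest features. Its WABG features numbered 0, 8, 2 and 1 on DoCM5 to DoCM8 and 1, 0, 8 and 0 on Con1 to Con4, of 38 to 40. DoCM6 and Con3, one array of each group, thus held 16 of the 20. Of its 3 kept features, 2 passed the filter through DCM arrays only and 1 through control arrays only. The mean signal over these 3 features was 5.05, 9.65, 6.53 and 2.64 on DoCM5 to DoCM8 and 5.64, 3.404, 7.55 and 3.61 on Con1 to Con4, so that the groups overlapped before normalization. On the glog2 scale without DoCM8, the values were 2.39, 3.08 and 3.20 on DoCM5 to DoCM7 and 1.95, 1.74, 2.15 and 1.95 on Con1 to Con4. After normalization these groups did not overlap, as for 4.34% of the 438 names.

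Since 2 of the 3 features were kept through the DCM arrays alone, and none of the 3 was WABG on DoCM5, DoCM8, Con2 or Con4, the values that follow are partly chosen by the difference and lie largely near background. The log2 fold change of cfa-miR-200b was 0.94 (SE 0.33, 95% interval 0.21 to 1.67), with p = 0.016 in limma, p = 0.0286 in the exact two-sided permutation test and an adjusted p of 0.997 in limma. The permutation p is the smallest that 3 against 4 arrays allow. The call was lost with all 8 arrays, where DoCM8 had the lowest value of any array, 1.49, and the log2 fold change was 0.58 (limma p = 0.138, exact permutation p = 0.229). It was also lost without DoCM5 in place of DoCM8, at 0.46 (limma p = 0.144, exact permutation p = 0.257). Besides DoCM8, leaving out DoCM6 gave 0.84 (limma p = 0.056) and leaving out DoCM7 gave 0.83 (limma p = 0.081), whereas leaving out DoCM5 gave 0.84 and kept the call (limma p = 0.0038), each with an exact permutation p of 0.0667, the smallest that 2 against 4 arrays allow. Leaving out any 1 of the 4 controls kept the call, with limma p from 0.027 to 0.0497 and an exact permutation p of 0.10, the smallest that 3 against 3 arrays allow. With all 40 features in place of the 3 kept ones it was 0.18 (limma p = 0.629, exact permutation p = 0.514). Quantile normalization kept the call, at 0.77 (limma p = 0.038, exact permutation p = 0.0571). Other scalings ended it, at 0.29 with the 75th percentile over the detected names and 0.65 with that over all names. With normexp and quantile normalization the log2 fold change was 0.085 (limma p = 0.060, exact permutation p = 0.0286). The group means there were 5.99 in DCM and 5.90 in controls. That setting adds an offset of 50, which compresses dim signals. For signals this dim the fold limit could hardly be reached, so the lost call there decides nothing. Between neighbours in a slide column, the DCM array minus the control array was 0.43, 1.30, 1.03 and -0.43 on the glog2 scale.

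The canine and murine listings of a miRNA differed in how often they were WABG. For miR-200a, 1 of 303 measurements was WABG in the canine listing and 82 of 304 in the murine listing. The canine listing of miR-200a thus gave no order of the arrays. For miR-200b, the counts were 20 of 315 and 49 of 309, and the listings did not rank the arrays alike. On DoCM6 the canine listing of miR-200b had 8 WABG features and the murine listing 0, and on DoCM5 the canine listing had 0 and the murine listing 12. The log2 fold changes of the listings, 0.94 and -0.07, were not tested against each other. Whether the listings were designed to the same sequence is not known here.

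Counted together, 1 of the 6 detected members passed an unadjusted p under 0.05 in limma with a fold change over 1.5 without DoCM8, beside 12 of 438 names (2.74%). This was cfa-miR-200b, whose features were partly kept through the DCM arrays alone, so the count is given as a description. With all 8 arrays it was 0 of 6, beside 4.11%, and without DoCM5 in place of DoCM8 0 of 6, beside 4.34%. Without the filter, when all 9 members had a value, 0 of 9 passed, beside 3.51% of 1224 names. After Benjamini-Hochberg adjustment, 0 of 438 names passed in limma without DoCM8, where 12 had an unadjusted p under 0.05. Of the 6 log2 fold changes without DoCM8, 3 were above and 3 below 0, with a median of 0.18 beside 0.00 over all names. The 95% intervals of the 5 members that did not pass all included 0 and were wide enough to hold a change of 1.5-fold in at least one direction.

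**Figure D5:**
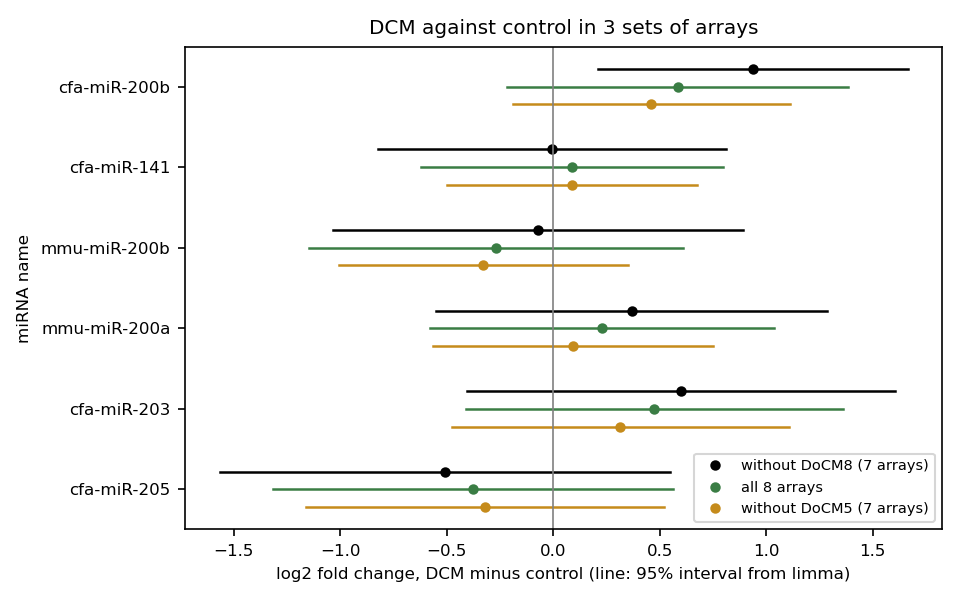
Log2 fold change, DCM minus control (horizontal axis), of the 6 detected epithelial names (vertical axis) with the 95% interval from limma, for 3 sets of arrays. The interval lies apart from 0 only for cfa-miR-200b without DoCM8 (0.21 to 1.67), and includes it in the other sets.

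Of 16 names listed for other miRNAs known from epithelia, 4 had a kept feature in the same serum, all 4 of them canine listings. This stands beside 35.8% of all names (54% of canine and 30.2% of murine names). cfa-miR-375, known from endocrine and gut epithelium, and cfa-miR-192, which is also a liver miRNA, were WABG in 100% of their measurements. cfa-miR-194 reached 27.2% and cfa-miR-215 24.8%. The listings of miR-31, the miR-182, miR-183 and miR-96 cluster, miR-34b, miR-34c, miR-449b, miR-449c and miR-135b, and the murine listing of miR-215, had no kept feature. None of the 4 passed the limits without DoCM8, and their log2 fold changes ran from -0.24 (cfa-miR-375) to 0.21 (cfa-miR-194). The passenger strands of miR-200c, miR-141 and miR-203, listed for the mouse, had no kept feature either.

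As a description, the names whose glog2 values ran most alike with the 3 best detected members over the 8 arrays were sought among 348 names with at least 50% of their features kept. All values share the slide and the normalization. For cfa-miR-205 these were cfa-miR-99a (Pearson r = 0.88), mmu-miR-199a-3p (0.88) and mmu-miR-99a (0.87). For cfa-miR-141 they were cfa-miR-130a (0.79), cfa-miR-214 (0.60) and mmu-miR-24 (0.57). For cfa-miR-203 they were cfa-miR-138a (0.70), cfa-miR-143 (0.67) and cfa-miR-17 (0.62). The other 6 epithelial names kept too few features to enter this search.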

How the data were processed

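Serum RNA of 8 dogs was labelled with Cy3 and hybridized to one-colour Agilent miRNA arrays. The authors deposited, per array, the output of Agilent Feature Extraction 10.7.3.1, in which the signal is an intensity per feature with background subtracted and not normalized between arrays, and a table of the same values. Groups were taken from the labels. A name was detected when at least 1 feature was WABG in 2 or more of the 4 arrays of either group. Outlier-flagged features were left out of counts and means on the array concerned. They stayed in the filter itself and in the counts per array of the other listed miRNAs. Mean signals of the kept features per name were normalized by the vsn model in an own implementation (quantile 0.9, 5 slices, 7 iterations), tested on simulated data together with the test.

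Groups were compared with limma 3.58.1 in R 4.3.3, fitted over all detected names, at an unadjusted p under 0.05 with a fold change over 1.5 as in the study's methods, and after Benjamini-Hochberg adjustment. Exact permutation tests were two-sided, over all splits of the arrays. The smallest p they allow is 0.0286. The p-values measure the spread between these arrays, in which differences between dogs and between arrays cannot be told apart.

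All members were named, those with at least 50% of their features kept array by array. cfa-miR-200b was also given array by array, chosen after its values were seen. The 3 most alike names were named for each of the former. Members and lists of other miRNAs were chosen with earlier results of these data known. Other settings were tried for the choice of arrays, the scaling, the dim-feature filter, the averaging, the outlier flags, blocking by slide column and leaving out single arrays. The array grid names another genome build than the gene table, so no coordinates are given. Figures were drawn with matplotlib 3.10.9.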

Additional observations from a re-analysis of the deposited data

Results flagged for a closer look

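In 27 sets of values from 4 arrays of a group, the array farthest from the others was looked for with Dixon's test at its 95% limit, which chance passes in about 1 of 20 sets. It was passed in 2 sets, both percentages of WABG features near 0. For cfa-miR-200b in controls, Con3 had 21.1%, against 0% to 2.50% on the other control arrays. For cfa-miR-200a in DCM, DoCM6 had 2.56%, a single feature, against 0% on the other DCM arrays.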

How the results depend on the processing

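The number of detected members was 6 with any of the 8 arrays left out, 5 with 3 arrays required and 3 with at least 50% of features kept. It was 9 of 9 when 1 array sufficed (987 of 1224 names), for cfa-miR-200c and cfa-miR-429 only through features marked as outliers, and with the software's weaker flag of a positive and significant signal (1224 of 1224 names). The difference in the share of WABG features (DCM minus control, percentage points) was -2.08, and ran from -8.12 to 2.71 with 1 array left out. The count of member names past the limits, 1 without DoCM8, became 0 with all 8 arrays, without DoCM5 in place of DoCM8, with array weights, with the 75th percentile over the detected or all names, with normexp and quantile normalization, with no filter, with at least 50% of features kept, and with 3 arrays required (the last 2 settings left cfa-miR-200b untested), and ran from 0 to 2 with 1 array left out. The 2 without Con1 were cfa-miR-200b and cfa-miR-203.

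Over all names, the count of 12 became 19 without DoCM5, 34 with array weights, 23 with the 75th percentile over the detected names, 2 with normexp, 43 with no filter and 7 with at least 50% of features kept. It ran from 10 to 30 with 1 array left out. The 75th percentile over the detected names moved the median log2 fold change of all names to -0.25 and gave 2 higher and 21 lower names, against 6 and 6, with 1 past the adjusted limit (limma adjusted p = 0.038). That over all names moved the median to 0.11. Without the filter, 2 of 19 other epithelial and passenger names passed, mmu-miR-141* and mmu-miR-203*, neither with a kept feature.

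The log2 fold change of cfa-miR-141, -0.005, became 0.088 with all 8 arrays, 0.088 without DoCM5, 0.20 with array weights, 0.023 with quantile normalization, 0.010 with normexp, 0.039 with at least 50% kept, 0.081 with 3 arrays required, 0.0054 with the filter on 7 arrays, 0.011 with outliers kept and 0.11 with the slide column as a block, and ran from -0.33 to 0.30 with 1 array left out. For mmu-miR-200a it became -0.017 with array weights and -0.039 with the 75th percentile over the detected names, and ran from 0.11 to 0.65 with 1 array left out. For mmu-miR-200b it became 0.19 with the slide column as a block, and ran from -0.33 to 0.33 with 1 array left out. cfa-miR-200b, cfa-miR-203 and cfa-miR-205 kept their sign under every alternative run. However, cfa-miR-200b lost its call in 9 of 21 (values 0.085 to 1.09). cfa-miR-203 ran from 0.059 to 1.07 and cfa-miR-205 from -0.96 to -0.063. One alternative chosen after seeing the data, only the probe with the most kept features, left 12 names past the limits. The causes of these shifts were not tested.

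No paired analysis was possible because no dog number occurs in both the DCM and the control labels, and the slide column pairs arrays by position only. Signals close to background limit all values of these names, since a feature of 1 probe decides many of them.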
